A study of Homo sapiens with 8 samples.

Results

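The mesenchymal lines PC3-EMT1, PC3-EMT12 and PC3-EMT14, 3 in number, were compared with PC3-Epi, the epithelial prostate cancer line from which they were derived, on the 4 arrays of untransduced cells among the 8 of the series. Every gene with a probe set of its own was followed, which gave 19775 genes from the 41091 probe sets annotated with 1 gene symbol. PC3 is an established line of human prostate cancer. PC3-Epi was made from luciferase-expressing PC3 cells by picking colonies for their light signal and epithelial shape, and the EMT lines were populations isolated for changed shape after PC3-Epi had been cultured with human macrophages. All 4 lines carried no shRNA, were grown in RPMI with serum and were left 2 days after plating before RNA was taken, and each was hybridised to 1 Affymetrix array. PC3-Epi was measured once, so its own spread is unknown and any deviation of that array enters the difference of all 3 lines alike. The p-values measure the spread between the 3 lines, which were treated as replicates of the mesenchymal state, and which may in part be technical.

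In an epithelial-to-mesenchymal transition, cells that adhere to each other through cadherins, tight junctions and desmosomes lose these contacts and their apical-basal polarity, and acquire a motile, elongated form. Transcriptional repressors of the ZEB, SNAI and TWIST families bind E-box motifs in epithelial genes such as that for E-cadherin, and are opposed by epithelial factors of the OVOL, grainyhead and ETS families. Splicing factors of the ESRP family hold many transcripts in their epithelial isoform. In carcinoma these changes are studied for their part in invasion and metastasis.

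Values are log2 levels as given by the RMA method, so a difference of 1 is 2-fold. The medians of the 4 arrays lay between 4.33 and 4.35. The highest of the 27 bacterial control probe sets, which have no target in human RNA, stood at 4.56 and served as the background. This is a high limit, since the medians of these controls lay between 2.44 and 2.63. A gene at or under it may still hold a weak signal. A gene is represented by its probe set with the highest mean over the series, and is called higher or lower where limma's adjusted p lay under 0.05. With so few arrays a gene that was not called may still differ, and is not shown to be unchanged. A fold against a group under the background is given as a lower bound, with that group set to 4.56. Differences in log2 are given as measured, also where a group lay under the background, and are not bounds. The labelled states fitted their defining markers in part. Of 10 epithelial markers, 10 stood above background in PC3-Epi and 6 in each EMT line, and of 12 mesenchymal markers 8 did so in PC3-Epi and 10 or 11 in the EMT lines. Of 25 macrophage and leukocyte markers, 2 exceeded the background, on all 4 arrays alike (CD74 and LAPTM5), and the summed linear level of the list was 310 in PC3-Epi and 349 to 360 in the EMT lines. PTPRC, the pan-leukocyte antigen CD45, stood at 2.44 in PC3-Epi and between 2.52 and 2.99 in the EMT lines, and CD14 at 3.70 against 3.69 to 3.90. FCGR2A, an Fc receptor, was the 1 marker of this list called higher, at 3.21 in PC3-Epi against 3.71 to 3.93, all under the background.

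Of the 41091 probe sets, 2276 were called higher in the EMT lines (5.54%) and 3440 lower (8.37%). The fit rests unevenly on the lines: without PC3-EMT14 772 probe sets were called, without PC3-EMT1 2507 and without PC3-EMT12 5693, against 5716 with all lines. Of 174 genes named by the rules used here that were called, 73 lost the call without PC3-EMT14, 30 without PC3-EMT1 and 12 without PC3-EMT12, with the same sign in each. Counts of list members below are therefore given with the count left without PC3-EMT14. Of the 24 genes with the largest rises and falls 0 lost the call. They were chosen on these arrays for being called and large, and PC3-Epi stayed in every fit, so this carries little weight. Counted by genes, 1485 were higher (7.51%) and 1740 lower (8.80%), and among the 11363 genes with a mean level of log2 5 or above 1361 were higher and 1453 lower. A difference of at least 2-fold, the same way in all 3 lines, was found for 519 probe sets that were higher (1.26%) and 1165 that were lower (2.84%), or 359 and 610 genes. Differences of 8-fold or more in all 3 lines were found for 25 genes that were higher and 60 that were lower. In 140 of the 610 genes that were lower, every EMT line lay at or under the background, and in 103 of the 359 that were higher PC3-Epi did.

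**Figure D1:**
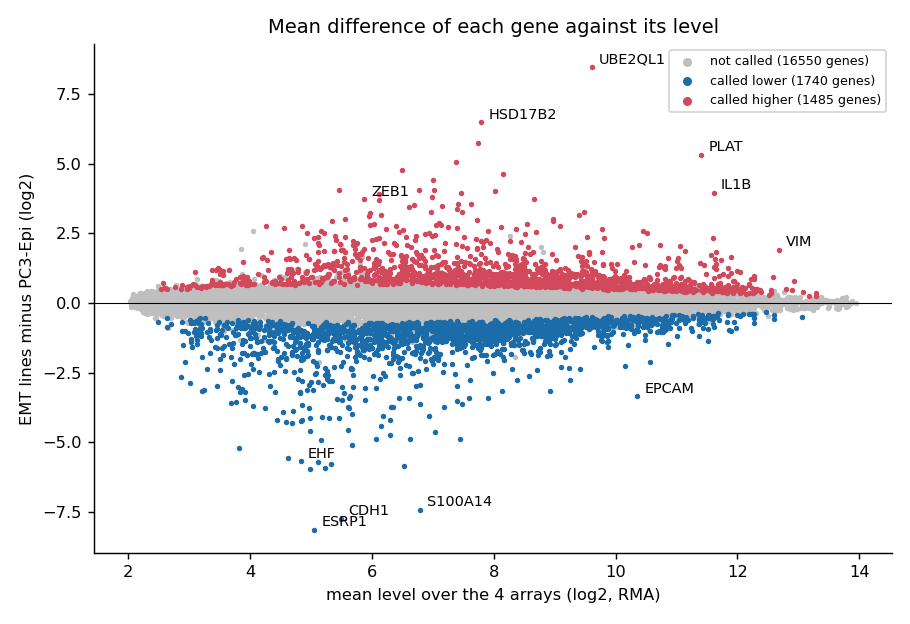
Each point is 1 of 19775 genes, with its mean log2 level over the 4 arrays on the x axis and the mean of the EMT lines minus PC3-Epi (log2) on the y axis; blue and red mark genes called lower and higher by limma. The ends are held by ESRP1 at -8.13 and UBE2QL1 at 8.47.

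The deepest falls were in epithelial genes that went from among the bright signals to the background. ESRP1, the epithelial splicing regulator, stood at 11.15 in PC3-Epi and at 2.94, 2.89 and 3.24 in the EMT lines (values of PC3-EMT1, PC3-EMT12, PC3-EMT14, in this order throughout), and fell by 8.13 ± 0.20 (SE from limma, n = 3 against 1, adjusted p = 5.47e-06). With the EMT lines at the background this was at least 96.4-fold. CDH1, or E-cadherin, stood at 11.31 in PC3-Epi and at 3.07, 3.61 and 4.00 in the EMT lines, which is at least 107-fold lower (adjusted p = 2.04e-05). The EMT lines lay under the background for both genes and far from PC3-Epi.

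S100A14, an S100 calcium-binding protein, stood at 12.35 in PC3-Epi and at 4.60, 4.92 and 5.29 in the EMT lines, so it kept a signal just above the background in each line. LCN2, a lipocalin that binds bacterial siderophores, behaved likewise, at 10.90 against 5.08, 5.11 and 5.03. RAB25, a small GTPase of apical recycling endosomes, stood at 9.45 against 3.63, 3.39 and 3.47. The differences were -7.42 ± 0.27, -5.83 ± 0.17 and -5.95 ± 0.18 for these 3 genes.

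The calcium buffer CALB1 (9.68 in PC3-Epi, 3.55 to 4.08 in the EMT lines), CAMK2N1, an inhibitor of calmodulin-dependent kinase (9.68 against 3.31 to 4.37), and the calprotectin subunit S100A9 (9.39 against 3.49 to 3.99) reached the background in every EMT line. So did the ETS factor EHF (9.08 against 3.28 to 3.50), the zinc finger repressor OVOL2 (8.80 against 2.96 to 3.40), the matrix protein nephronectin, NPNT (7.72 against 2.43 to 2.63), and FXYD3, a regulator of the sodium pump (9.48 against 4.33 to 4.49). All 12 of the largest falls had PC3-Epi above every EMT line by more than the whole range of the lines. This follows largely from how they were chosen on the same arrays, and is no support of its own. OVOL2 and NPNT each rest on 1 of 2 probe sets, the other not being called.

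The largest rises ran from the background to bright signals. UBE2QL1, related to ubiquitin-conjugating enzymes, stood at 3.25 in PC3-Epi and at 11.83, 11.70 and 11.64 in the EMT lines (difference 8.47 ± 0.14, adjusted p = 7.1e-07), which is at least 144-fold higher. HSD17B2, a hydroxysteroid dehydrogenase that inactivates sex steroids, stood at 2.92 against 9.0, 9.62 and 9.62. EPB41L3, a linker of the membrane to the cytoskeleton, stood at 3.43 against 9.07, 9.40 and 9.04. None of the 3 had a signal above the background in PC3-Epi.

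PLAT, the tissue plasminogen activator, was already well expressed in PC3-Epi at 7.41 and reached 12.92, 12.57 and 12.73, a rise of 40.1-fold (adjusted p = 6.25e-06). FBN1, the microfibril protein fibrillin, rose from 4.99 to 8.92, 9.06 and 9.09. The tetraspanin TSPAN8, which the study singled out on these same arrays, stood at 3.60 against 8.59, 8.60 and 8.75. The lines agreed closely for these genes, while others spread more widely.

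LINC00261, a long non-coding RNA, ranged from 8.57 in PC3-EMT1 to 10.02 in PC3-EMT12 against 4.67 in PC3-Epi. ADRB1, the cardiac-type beta adrenergic receptor, stood at 6.96 and 6.85 in PC3-EMT1 and PC3-EMT12 but at 5.59 in PC3-EMT14, against 2.40 in PC3-Epi. The VEGF receptor KDR (3.98 against 7.66 to 8.62), TMEM200C (2.93 against 7.25 to 8.19), the mitochondrial aldehyde dehydrogenase ALDH2 (3.67 against 7.54 to 8.45) and the pseudogene AADACP1 (3.72 against 7.51 to 8.21) complete the 12 largest rises. ADRB1 rests on 1 of its 3 probe sets and TMEM200C on 1 of 2.

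**Figure D2:**
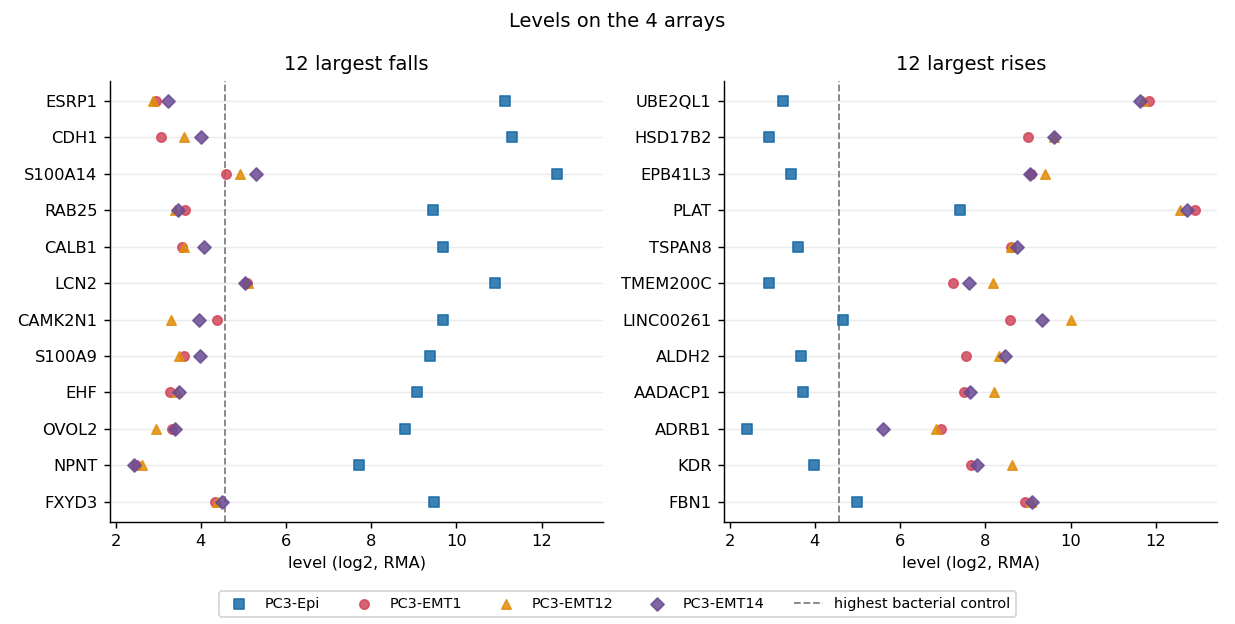
Log2 RMA level (x axis) of the 12 genes with the largest falls (left) and rises (right) on each of the 4 arrays; squares are PC3-Epi, circles PC3-EMT1, triangles PC3-EMT12, diamonds PC3-EMT14 and the dashed line the highest bacterial control, 4.56. PC3-Epi stands apart from the 3 lines for every gene, as in ESRP1 at 11.15 against 2.89 to 3.24. The genes were chosen on these arrays for large differences in all 3 lines.

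Because repressors of the ZEB and SNAI families bind the E-box CACCTG, the 250 bases before the start site of each gene were read from RefSeq (GRCh38.p14) and searched on both strands for CACCTG and for CCGTTA, the core bound by OVOL proteins. The promoters of 3 genes with large falls and 2 with large rises are shown 5′ to 3′ on the strand of the gene, ending at the base before the start site, with the matches in capitals. They lie at chr1:153616326-153616575 (minus strand, S100A14), chr1:156060910-156061159 (plus, RAB25), chr9:128149203-128149452 (plus, LCN2), chr5:6448609-6448858 (plus, UBE2QL1) and chr18:5628992-5629241 (minus, EPB41L3).
S100A14: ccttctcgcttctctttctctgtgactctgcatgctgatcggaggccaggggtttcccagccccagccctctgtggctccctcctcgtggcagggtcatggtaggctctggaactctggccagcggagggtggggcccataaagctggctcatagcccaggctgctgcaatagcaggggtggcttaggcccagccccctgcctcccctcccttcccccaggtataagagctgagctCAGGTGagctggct
RAB25: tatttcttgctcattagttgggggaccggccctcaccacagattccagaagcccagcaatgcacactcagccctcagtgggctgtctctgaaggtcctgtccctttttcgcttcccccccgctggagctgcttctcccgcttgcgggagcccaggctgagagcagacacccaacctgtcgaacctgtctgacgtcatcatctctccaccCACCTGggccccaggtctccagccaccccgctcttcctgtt
LCN2: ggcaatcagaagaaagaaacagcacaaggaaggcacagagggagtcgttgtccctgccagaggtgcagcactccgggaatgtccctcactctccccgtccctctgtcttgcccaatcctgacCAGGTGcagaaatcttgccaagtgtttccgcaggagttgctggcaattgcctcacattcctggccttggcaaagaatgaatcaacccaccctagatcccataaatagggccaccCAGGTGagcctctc
UBE2QL1: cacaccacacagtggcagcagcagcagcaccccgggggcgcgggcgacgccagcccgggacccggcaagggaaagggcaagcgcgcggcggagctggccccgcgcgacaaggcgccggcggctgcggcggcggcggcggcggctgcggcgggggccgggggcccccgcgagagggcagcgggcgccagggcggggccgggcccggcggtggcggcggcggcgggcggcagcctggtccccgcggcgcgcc
EPB41L3: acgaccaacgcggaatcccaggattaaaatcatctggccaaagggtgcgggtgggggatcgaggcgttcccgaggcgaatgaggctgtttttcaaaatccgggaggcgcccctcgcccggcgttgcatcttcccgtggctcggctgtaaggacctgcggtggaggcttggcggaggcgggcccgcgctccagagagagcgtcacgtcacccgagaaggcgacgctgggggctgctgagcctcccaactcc

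In S100A14 1 E-box begins 14 bases before the start site, in RAB25 1 begins 41 bases before it, and in LCN2 E-boxes begin 128 and 14 bases before it. UBE2QL1 and EPB41L3 hold neither motif in this window. Promoters of ESRP1, CDH1 and CALB1, which fell further than LCN2, and of HSD17B2, which rose further than EPB41L3, are not shown, so the genes shown give no share of the largest changes with an E-box. Over the 15382 genes with a promoter in the table, 16.8% held CACCTG. The share was 19.4% of the 1385 genes called lower and 14.5% of the 1205 called higher. Among genes 2-fold or more lower in all 3 lines it was 26.2% (123 of 469), and among those 2-fold or more higher 13.6% (38 of 280). CCGTTA was found in 2.87% of all promoters, 3.61% of those of genes called lower and 2.90% of those of genes called higher. Among genes 2-fold or more lower in all 3 lines its share was 2.35% (11 of 469), and among those 2-fold or more higher 2.86% (8 of 280). These shares describe letters in a window, and base composition was not matched between the groups.

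Over all genes 7.51% were called higher and 8.80% lower, and the counts of list members with all 3 lines are to be read against these shares. Nothing particular to a list is read from a share near them. The counts without PC3-EMT14 come from a fit with far fewer calls, 246 higher and 526 lower of the 41091 probe sets. They are not to be read against the shares with all lines. The 246 and 526 count probe sets whereas list members are genes, and no share of genes is given for that fit. These numbers are thus only a rough guide to the counts without PC3-EMT14. Of 18 tight junction genes, 13 fell and 0 rose, with a median difference of -1.42 against 0.10 over all genes. Without PC3-EMT14 7 were called lower and the median was -1.31. LSR, the receptor that marks tricellular junctions, went from 9.73 to 4.74, 4.77 and 5.04, CLDN7, a claudin, from 10.20 to 6.14, 6.58 and 7.02, and OCLN, occludin, fell by 2.76. ILDR1 fell by 2.96 and MARVELD3 by 2.94, and the scaffolds CGN (-1.76), TJP3 (-1.35) and TJP1 (-1.0) fell less. CLDN1, CLDN3 and CLDN4 were among the 5 members not called.

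Of 14 desmosome genes 7 fell (1 without PC3-EMT14), among them desmoplakin, DSP (10.44 against 8.11, 7.39 and 7.56), periplakin, PPL (-1.87 ± 0.34), the desmosomal cadherin DSG2 (-1.77 ± 0.20) and plakoglobin, JUP (-1.18 ± 0.15). The plakophilin PKP1 rose by 0.65 (0 members higher without PC3-EMT14). Among 15 genes of adherens junctions, of which 3 rose and 3 fell (1 and 2 without PC3-EMT14), the cadherins moved in opposite directions: CDH1 and P-cadherin, CDH3 (10.50 against 6.09, 5.61 and 5.93), fell, whereas CDH11 rose by 1.26 ± 0.11 and N-cadherin, CDH2, by 0.74 ± 0.16. CDH2 stood at 8.44 in PC3-Epi, and so was well expressed there, and 1 of its 2 probe sets was called. CTNNB1, beta-catenin, and CTNNA1, alpha-catenin, were not called. Of 19 polarity genes 4 fell and 2 rose (2 and 0 without PC3-EMT14), led by PATJ (7.95 against 4.51 to 4.89) and CRB3 (8.05 against 5.45 to 5.71), both of the Crumbs complex. Of 11 gap junction genes 2 rose and 1 fell (2 and 1 without PC3-EMT14). GJA3 stood at 3.30 in PC3-Epi and 6.27, 6.30 and 6.33 in the EMT lines and PANX2 rose by 2.26, while GJB5 fell by 1.8.

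Apical traffic and surface proteolysis also held more falls than rises. Of 21 genes of epithelial vesicle traffic 9 fell and 1 rose (4 and 0 without PC3-EMT14). HOOK1, a microtubule adaptor, went from 7.80 to 3.77, 3.09 and 3.72, AP1M2, the epithelial clathrin adaptor subunit, fell by 2.35 ± 0.19, and the synaptotagmin-like SYTL2 by 2.37 ± 0.37. AP1S2, a subunit of the same adaptor class, rose by 1.5. Of 21 membrane proteases and inhibitors 9 fell (5 without PC3-EMT14), led by ST14, or matriptase (10.27 against 5.21, 5.39 and 5.61), its partner PRSS8, prostasin (7.92 against 3.37, 3.57 and 3.86), and the kallikrein KLK6 (9.84 against 4.72, 4.89 and 5.75). PLAT and PLAUR, the urokinase receptor (1.12), were the 2 members that rose (1 without PC3-EMT14). FUT3, the fucosyltransferase that makes Lewis antigens, fell by 3.04 ± 0.19, among 6 falls and 2 rises in 21 mucin and glycosyltransferase genes (3 and 0 without PC3-EMT14).

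The 3 keratins among the epithelial markers were not called. KRT8 stood at 11.96 in PC3-Epi and at 11.67, 11.12 and 11.24 in the EMT lines, and its difference did not pass the test (-0.61 ± 0.19, adjusted p = 0.0828). KRT18 (-0.48 ± 0.13) and KRT19 (-0.30 ± 0.09) did not pass it either, with adjusted p of 0.0543 and 0.0636. KRT15 fell by 1.86 ± 0.22 and KRT7 by 1.01 ± 0.20. EPCAM, though it fell by 3.35 ± 0.22, remained well expressed at 9.16, 9.80 and 9.58.

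Of the repressors ZEB1, ZEB2, SNAI1, SNAI2 and TWIST1, 1 was called. ZEB1 stood at 3.08 in PC3-Epi and at 6.81, 7.11 and 6.50 in the EMT lines, and all 4 of its probe sets were called higher. SNAI2 (7.64 in PC3-Epi, 7.25 to 7.73 in the EMT lines) and TWIST1 (6.76 against 7.00 to 7.13) were expressed in all 4 lines and were not called. ZEB2 lay under the background everywhere and SNAI1 lay at 4.46 to 4.56, at its edge. Among 48 transcription factors of epithelia and of the transition, 15 fell and 4 rose (9 and 2 without PC3-EMT14). GRHL2, a grainyhead factor that maintains junction genes, went from 8.84 to 3.72, 3.95 and 4.13, and OVOL1 (-3.18), FOXQ1 (-3.41), GRHL3 (-2.58), GRHL1 (-2.48) and GATA3 (-2.17) fell with it. FOXA2, a forkhead factor of endoderm, rose by 2.66.

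Mesenchymal genes rose in part: of 12 markers 5 rose (41.7%) and 1 fell (8.33%), with 2 and 0 without PC3-EMT14. Over all genes 7.51% rose and 8.80% fell. The median difference of the markers was 0.30, and 6 were not called. Vimentin, VIM, went from 11.25 to 13.19, 13.11 and 13.17 (1.91 ± 0.08, adjusted p = 2.03e-05), so it was among the bright transcripts of PC3-Epi too. Caldesmon, CALD1, fell by 1.70 ± 0.23, with 5 of its 11 probe sets called lower and 0 higher. TAGLN was not called, and ACTA2, smooth muscle actin, rose by 0.88 ± 0.19, with 1 of its 3 probe sets called. Fibronectin, FN1, divided the lines: it stood at 11.88 in PC3-Epi, 10.46 in PC3-EMT1, 12.37 in PC3-EMT12 and 11.69 in PC3-EMT14, and was not called (-0.37 ± 0.57). SPARC, a matricellular protein, also spread widely, at 3.59 against 5.28, 7.15 and 5.57 (adjusted p = 0.043).

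Of 28 genes of the fibrillar matrix 8 rose and 3 fell (3 and 1 without PC3-EMT14). The collagen VI chains rose together, COL6A2 by 2.02, COL6A1 by 1.87 and COL6A3 by 1.30, whereas the interstitial collagens COL1A1, COL1A2 and COL3A1 were not called. The proteoglycan versican, VCAN, went from 6.81 to 2.92, 2.98 and 3.46 with 5 of 5 probe sets lower, and thrombospondin, THBS1, from 11.33 to 9.13, 8.14 and 8.43 with 7 of 7 lower. In the list of hemidesmosomes and basement membrane 5 of 15 rose and 2 fell (0 and 0 without PC3-EMT14). The rises included perlecan, HSPG2 (1.45 ± 0.19), and the collagen IV chains COL4A6 (1.09 ± 0.24) and COL4A2 (0.97 ± 0.13), and the falls were ITGB4 (-0.76), the integrin subunit of hemidesmosomes, and dystonin, DST (-1.01 ± 0.25). The integrins were divided between 5 that rose (1 without PC3-EMT14), led by the collagen receptor subunit ITGA1 (4.51 against 6.95, 7.20 and 7.09), and 3 that fell (1), ITGB8 (-2.81 ± 0.18), ITGAV (-1.76 ± 0.23) and ITGA2 (-1.28 ± 0.18).

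**Figure D3:**
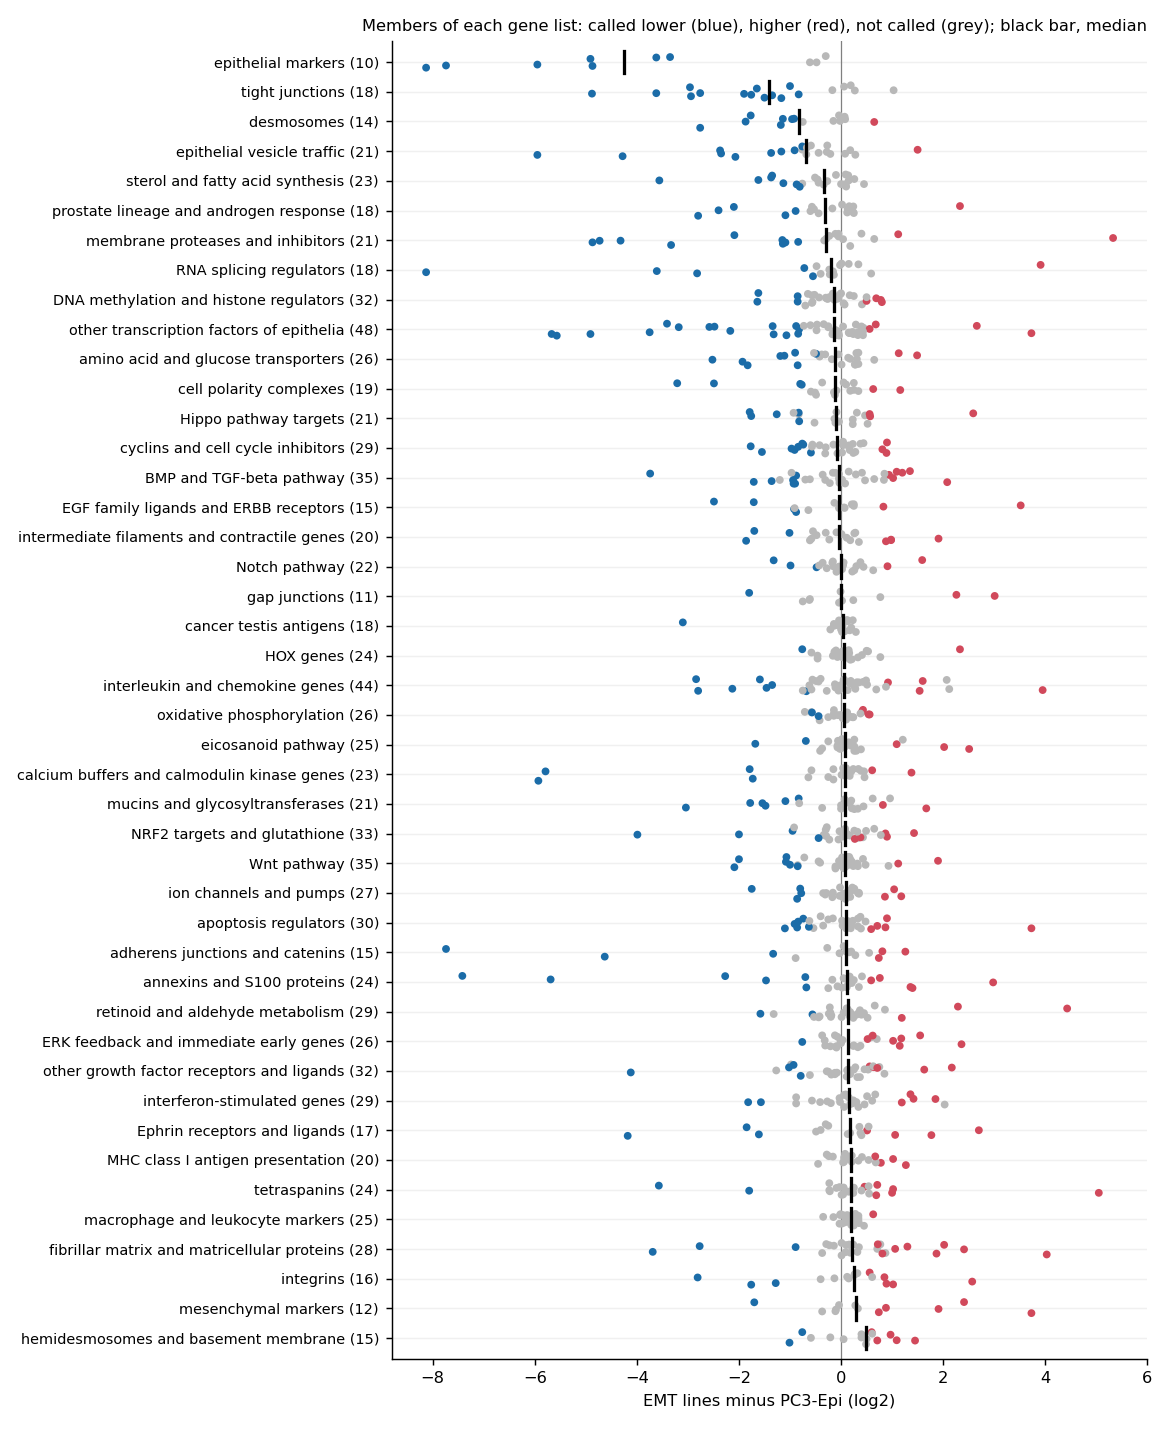
Members of 44 gene lists (rows, with the number measured), each point a gene at its mean difference of the EMT lines minus PC3-Epi (log2, x axis); blue, red and grey mark genes called lower, higher or not called, points are spread vertically at random, and the black bar is the median. The median is -4.25 for the epithelial markers and -1.42 for tight junctions, and most other lists have medians near 0 with single members far out.

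Growth factor signalling genes moved in both directions. In the EGF family, with 2 rises and 4 falls among 15 (1 and 1 without PC3-EMT14), ERBB3 fell (9.85 against 7.24, 7.49 and 7.34), as did EGFR (10.01 against 8.03, 8.61 and 8.26), while the ligand NRG2 stood at 4.05 against 7.18, 7.79 and 7.73. Of 32 other growth factor genes 5 rose and 4 fell (1 and 1 without PC3-EMT14). FGFR1 rose by 2.17 ± 0.23, IGFBP2, an insulin-like growth factor binding protein, fell (8.06 against 3.85, 3.57 and 4.42), and IGFBP4 rose by 1.63 ± 0.37. Of 26 genes of ERK feedback and the immediate early response 7 rose and 1 fell (3 and 0 without PC3-EMT14). The feedback inhibitors SPRY4 (7.76 against 9.95, 10.57 and 9.83), DUSP5 (1.55 ± 0.11), SPRY2 (1.18 ± 0.23) and DUSP6 (1.15 ± 0.09) rose, with the ETS target ETV5 (1.02), and EGR1 fell by 0.76. SPRY1, DUSP4, ETV4 and PHLDA1, of the same list, were not called.

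In the TGF-beta and BMP pathway 6 of 35 genes rose (17.1%) and 7 fell (20.0%), with 2 and 1 without PC3-EMT14. TGFB2 went from 9.11 to 6.2, 4.84 and 5.07 and the receptor TGFBR1 fell by 1.36 ± 0.21, as did the inhibitors SKIL (-1.71 ± 0.21) and SMAD7 (-0.94). TGFB1 rose by 1.09, the latent binding protein LTBP1 by 2.08 ± 0.15 and the ligand BMP6 by 1.35. CCN2, connective tissue growth factor, a target of YAP and of TGF-beta, rose from 8.50 to 11.09, 11.06 and 11.12, while 5 of the 21 Hippo pathway genes fell and 3 rose (1 and 1 without PC3-EMT14). AMOTL1 fell by 1.76 ± 0.28, and VGLL3 went from 5.22 to 3.44, 3.54 and 3.29, under the background. Among 35 Wnt genes, of which 6 fell (17.1%) and 2 rose (5.71%; 1 and 1 without PC3-EMT14), the receptors FZD7 (-2.09 ± 0.39) and FZD5 (-2.00 ± 0.21) fell and FZD1 rose by 1.90 ± 0.23. Of 22 Notch genes 2 rose and 3 fell (1 and 0 without PC3-EMT14). The effector HEY1 rose by 1.59 ± 0.11, and no NOTCH receptor was called. Of 17 ephrin receptors and ligands 4 rose and 3 fell (1 and 3 without PC3-EMT14): EPHA1 went from 7.99 to 3.79, 3.79 and 3.85, EPHA4 rose by 1.77 ± 0.27, and EPHA5 stood at 2.52 against 4.79, 5.59 and 5.29.

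Cytokine genes gave 7 falls (15.9%) and 4 rises (9.09%) among 44, with 3 and 2 without PC3-EMT14. IL1B, the inflammatory cytokine interleukin-1 beta, rose from 8.65 to 12.58, 12.37 and 12.83 (3.95 ± 0.16, adjusted p = 2.03e-05). Its decoy receptor IL1R2 fell from 7.25 to 4.37, 4.27 and 4.59, and the signalling receptor IL1R1 fell by 1.59. The neutrophil chemokine CXCL5 fell by 2.80 ± 0.17 and CXCL3 rose by 1.54. Antigen presentation genes that passed the test all rose, TAP1 by 1.27 ± 0.21, PSMB9 by 1.02 ± 0.20, TAPBP by 0.78 ± 0.18 and PSME1 by 0.67, which are 4 of 20 (0 without PC3-EMT14). Of 29 interferon-stimulated genes 4 were higher (13.8%) and 2 lower (6.90%), with 0 and 1 without PC3-EMT14, against 7.51% and 8.80% of all genes. OASL, an antiviral effector, stood at 7.25 in PC3-Epi, 10.66 in PC3-EMT1, 8.65 in PC3-EMT12 and 8.53 in PC3-EMT14, more than 2-fold higher in each line but spread too far to be called (adjusted p = 0.113).

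Sterol and fatty acid synthesis gave 7 falls and 0 rises among 23 genes, with a median of -0.34 (2 falls without PC3-EMT14, median -0.31). The elongase ELOVL7 went from 6.44 to 2.80, 2.93 and 2.90, and IDI1 (-1.62 ± 0.15), SC5D (-1.37 ± 0.26) and SQLE (-1.13), all of the sterol pathway, fell. FASN, SREBF1 and SREBF2 were not called. In the NRF2 list 5 of 33 rose (15.2%) and 4 fell (12.1%; 0 and 2 without PC3-EMT14), with AKR1B10, an aldo-keto reductase (8.66 against 4.47, 4.87 and 4.66), and GPX2 (-2.00 ± 0.18) falling and HMOX1 rising by 1.43 ± 0.24. Of 26 respiratory chain genes 4 rose (15.4%) and 2 fell (7.69%; 0 and 0 without PC3-EMT14). The differences of these called members lay between -0.57 for ATP5F1C and 0.56 for COX5B. SDHD (-0.71 ± 0.23) and NDUFS1 (-0.58 ± 0.22) lay further from 0 and were not called. In prostaglandin metabolism 3 of 25 genes rose and 2 fell (1 and 1 without PC3-EMT14). TBXAS1, thromboxane synthase, rose by 2.51 ± 0.21 and HPGD, which degrades prostaglandins, by 2.02 ± 0.40, the prostaglandin receptor PTGFR fell by 1.68 ± 0.18 and the reductase PTGR1 by 0.69, and PTGS2 was not called. Solute carriers gave 8 falls and 2 rises among 26 (2 and 0 without PC3-EMT14), led by the choline transporter-like SLC44A3 (-2.52 ± 0.21).

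The prostate transcription factor HOXB13 rose from 8.07 to 10.30, 10.67 and 10.23 and was the 1 HOX gene of 24 called higher, with 1 called lower (1 and 0 without PC3-EMT14). Of 18 genes of the prostate lineage 5 fell and 1 rose (3 and 1 without PC3-EMT14). PMEPA1 (-2.40 ± 0.26) and NDRG1 (-2.10 ± 0.29) fell, and STEAP4 went from 5.81 to 3.06, 3.11 and 2.85, under the background. KLK3, the gene of prostate-specific antigen, was not called. Of 30 apoptosis regulators 5 rose (16.7%) and 6 fell (20.0%), with 1 and 0 without PC3-EMT14. BCL2A1, an antiapoptotic BCL2 relative, rose from 5.86 to 9.22, 9.65 and 9.92, and the proapoptotic BIK and BCL2L11 fell by 1.10 ± 0.25 and 0.91 ± 0.18. The death receptor TNFRSF10B, also proapoptotic, rose by 0.90 ± 0.15, so the members did not move 1 way by function. Cell cycle genes gave 8 falls and 3 rises among 29 (0 and 0 without PC3-EMT14). CCNG2 fell by 1.55 ± 0.17, and RBL1 went from 6.02 to 3.98, 4.53 and 4.24, under the background. The inhibitors were divided, with CDKN1B lower by 0.97 ± 0.16 and CDKN1A at a difference of 0.89. Of 32 regulators of DNA methylation and histones 4 rose and 4 fell (0 and 1 without PC3-EMT14). The Polycomb subunits EED (-1.64 ± 0.15) and CBX2 (-1.62 ± 0.34) fell, while EZH2 and SUZ12 were not called. MAGEA6, a cancer testis antigen with near-identical relatives that its probes may share, went from 5.56 to 2.42, 2.31 and 2.65.

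Of 18 RNA splicing regulators 5 fell and 1 rose (3 and 1 without PC3-EMT14). ESRP1 was joined by RBM47 (9.49 against 5.76, 5.82 and 6.07) and MBNL3 (-2.82 ± 0.26), and MBNL2 and MBNL1 fell by 0.72 and 0.55. NOVA1, a splicing factor best known in neurons, stood at 3.17 against 7.05, 7.06 and 7.16. RBFOX2, QKI and PTBP1 were not called. Genes with several probe sets allow different stretches of a transcript to be compared on the same arrays. Of 10523 such genes 2873 had at least 1 probe set called, 466 had all called in 1 direction, and 15 had probe sets called in both directions. In 2392 some but not all were called, in 1 direction. Among others, the calls of CDH2, ACTA2, FZD1, PANX2, COL4A6, KRT7 and TNFRSF10B each rest on 1 of several probe sets.

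EPB41L5, a polarity and adhesion scaffold, showed the widest gap between probe sets in opposite directions. Its brightest probe set over the series rose from 5.08 to 6.16, 6.65 and 6.24 (1.27 ± 0.23), while another fell from 7.22 to 4.99, 5.28 and 4.73 (-2.22 ± 0.24) and another still from 5.29 to 3.22, 3.07 and 2.93. CD44, the hyaluronan receptor, came next. Of its 13 probe sets 1 rose, from 10.15 to 10.61, 10.59 and 10.73 (0.49 ± 0.12), and 2 fell, from 6.23 to 3.45, 3.47 and 3.60 and from 8.02 to 6.55, 5.42 and 6.24. The other 10 did not pass the test. As background, transcripts of both genes are spliced in different forms in epithelial and mesenchymal cells, and ESRP proteins act on CD44. Which exons these probe sets read was not analysed here.

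QSOX1, a sulfhydryl oxidase of the secretory pathway, had 1 probe set that rose from 8.41 to 9.89, 9.75 and 9.80 and 2 that fell, one of them from 8.72 to 7.42, 7.48 and 7.58. HIVEP3, a zinc finger factor, had 3 that rose by 0.95 to 1.86 and 1 that fell by 1.0. NF2, the tumour suppressor merlin, had 1 higher by 0.55 and 1 lower by 1.42. The gaps of CASZ1, PDCD6, SFXN1 and OXR1 ranged from 2.34 down to 1.54. YME1L1 had 20 probe sets under its symbol, of which 1 rose by 2.00 and 2 fell by 0.73 and 0.69, and its symbol may join transcripts that are not its own. For such genes 1 difference does not describe all probe sets, and the means over their probe sets turned the sign of EPB41L5, CD44, QSOX1, PDCD6 and OXR1.

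**Figure D4:**
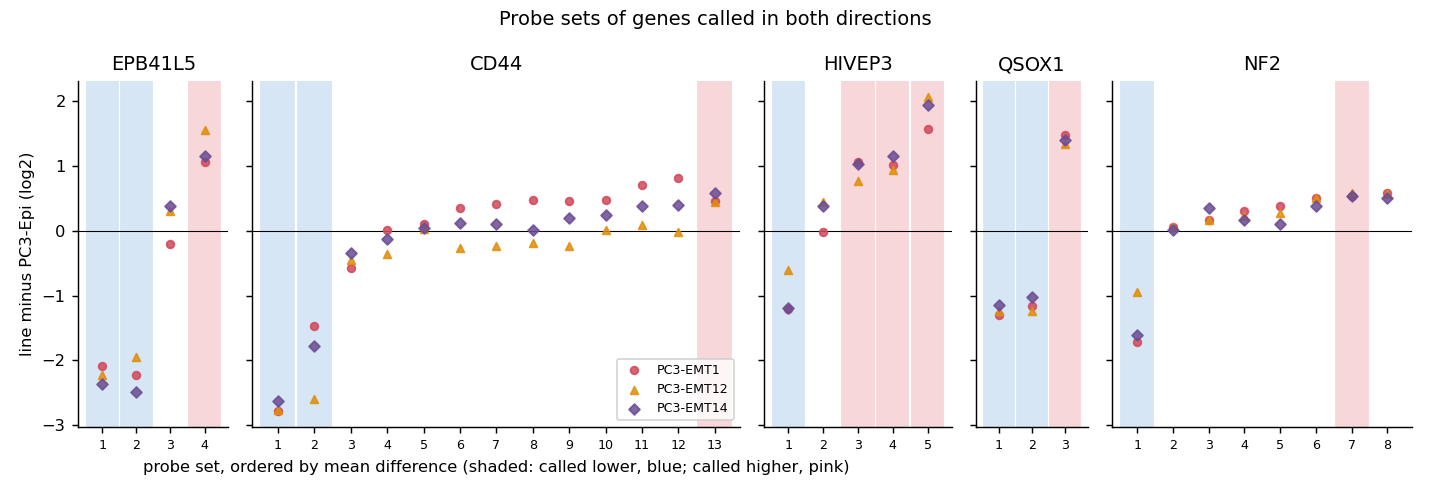
Difference of each EMT line from PC3-Epi (log2, y axis) for every probe set (x axis, ordered by mean difference) of 5 genes; circles, triangles and diamonds are the lines EMT1, EMT12 and EMT14, and blue and pink bands mark probe sets called lower and higher. In CD44 2 of 13 probe sets lie below 0 in all lines by more than 2-fold, while the brightest rose by 0.49.

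The 969 genes 2-fold or more apart in all 3 lines were chosen for differing the same way in each. As a description of them, the median size was 1.61 and the median range between the lines 0.34. Since the lines share the PC3-Epi array, their likeness in these differences is not evidence of its own. The line with the largest size was PC3-EMT1 in 360 of these genes, PC3-EMT14 in 343 and PC3-EMT12 in 266. Line by line, 2-fold or greater falls numbered 1142 genes in PC3-EMT1, 1066 in PC3-EMT14 and 789 in PC3-EMT12, and rises 615, 615 and 545. A further 306 genes were 2-fold or more higher in exactly 1 line and 196 in 2, and 453 and 357 were lower.

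GDF15, a stress-induced TGF-beta relative, was the 1 gene of 19775 that was 2-fold or more higher in 1 line and lower in another. It stood at 8.83 in PC3-Epi, 9.93 in PC3-EMT1, 7.64 in PC3-EMT12 and 8.43 in PC3-EMT14. Genes 2-fold or more apart in 1 line and under 1.5-fold in the other two numbered 56 for PC3-EMT1 (15 higher, 41 lower), 31 for PC3-EMT12 (18 and 13) and 10 for PC3-EMT14 (6 and 4). Each such value is 1 array, without a replicate, and was not tested.

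In PC3-EMT1 the glutathione transferase GSTP1 stood at 8.84, against 10.26 in PC3-Epi and 10.44 and 10.64 in the other lines. SERPINH1, a collagen chaperone, stood at 7.17 there against 8.58 in PC3-Epi and 8.12 and 8.26, and KCNH2, a potassium channel, at 6.29 against 7.86, 8.01 and 7.56. SYT16 and ELAPOR2 were also low in PC3-EMT1. In PC3-EMT12 the focal adhesion protein TNS4 stood at 7.24 against 9.07 in PC3-Epi and 9.19 and 8.53, and the homeobox gene IRX2 at 5.55 against 7.26, 7.84 and 7.10, whereas TOX2 (6.26 against 4.82, 4.45 and 4.92), PLEKHH2 and GOLGA8N were high there. In PC3-EMT14 JAKMIP1 (4.8), FEZ1 (4.61), CAPNS2 (4.93) and DHRS9 (6.44) were high and DDX60 (4.37) low. The first 3 of these stand close to the background of 4.56.

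**Figure D5:**
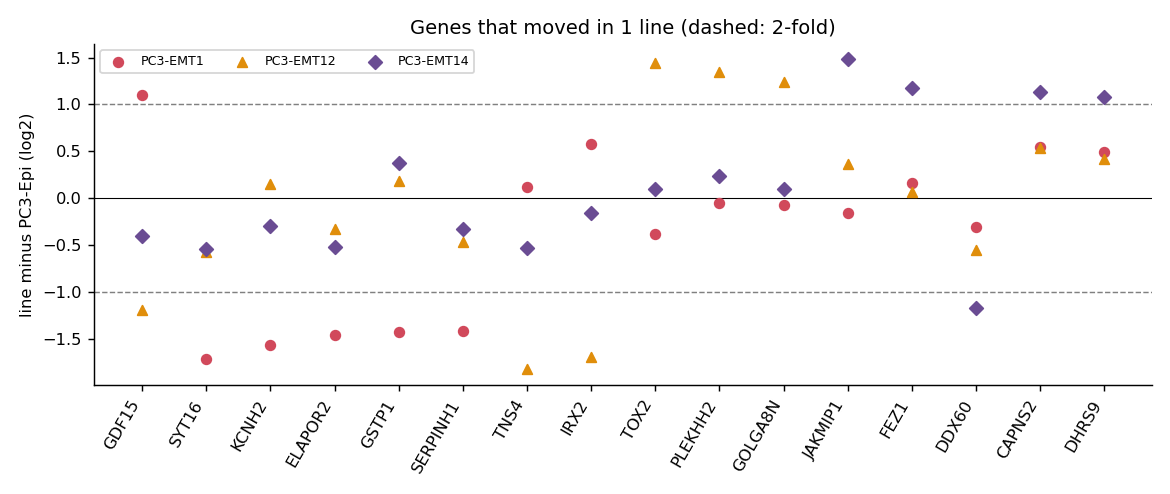
Difference of each EMT line from PC3-Epi (log2, y axis) for GDF15 and for the 5 genes per line with the largest difference in that line alone (x axis); circles are PC3-EMT1, triangles PC3-EMT12 and diamonds PC3-EMT14, and dashed lines mark 2-fold. GDF15 lies at 1.10 in PC3-EMT1 and -1.19 in PC3-EMT12.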

How the data were processed

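Each line was hybridised to 1 Affymetrix human array. The authors made log2 intensities with RMA in the affy package (versions not given in the sources used here), and these deposited log2 values were used unchanged. RMA adjusts arrays to a common distribution, so a shift of all transcripts would not be seen, and it compresses folds near the background. Of 54675 probe sets 62 were controls. The other 54613 were fitted by group with limma 3.58.1 in R 4.3.3, eBayes with a trend, and Benjamini-Hochberg adjustment over all of them at 0.05. The fit was tried in 5 runs on simulated data with 200 changed probe sets. It recovered 8.6% of the 2-fold and 93.6% of the 4-fold changes. The arrays gave far more calls than these runs, so the shares may not carry over to them. The 3 lines left 2 residual degrees of freedom and the prior added 5.77. The single PC3-Epi array was taken to have the spread of the EMT lines. Gene names came from the platform annotation, and 41037 of 41091 probe sets matched a current human gene by Entrez number. Probe sets with several symbols (1801) or none (11721) were set aside, and some listed genes and 1 gene list are not reported here.

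The members, gene lists, naming rule and tests were chosen with earlier results of these data known. The naming rule took the 12 largest rises and falls among genes called and 2-fold apart in all lines. In each list it took the 4 genes farthest from 0. It also took the markers, the genes the study names, the 10 genes with the widest gap between opposed probe sets and the line-specific genes. Not every gene it took is named in the text, among them some that were not called, and counts are not given for every list. Other list members were picked with their values in view. Alternatives were other priors, filters on low values, adjustment over fewer probe sets, other rules for the probe sets of a gene, quantile and cyclic loess normalization, 32 added on the linear scale, other fold limits and leaving out each line.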

Additional observations from a re-analysis of the deposited data

Results flagged for a closer look

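Probe sets to which the annotation gives no gene symbol took no part in the comparisons, and some carried a signal that differed from PC3-Epi. Of 11721 such probe sets, 33 were 2-fold or more higher and 205 were 2-fold or more lower in all 3 EMT lines, and limma called 142 higher and 647 lower. What they read was not analysed here.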

How the results depend on the processing

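The counts of limma calls moved most when PC3-EMT14 was left out. Leaving out 1 line at a time gave 246 to 2180 probe sets called higher and 526 to 3513 called lower, with PC3-EMT14 at the low end, against 2276 and 3440, and 543 to 690 that were 2-fold or more higher and 1256 to 1754 lower in the lines that remained, against 519 and 1165. Of the 772 calls made without PC3-EMT14, 771 were shared with the fit of all lines, of 2507 without PC3-EMT1 2430, and of 5693 without PC3-EMT12 4707. Fewer probe sets entered under other rules: averaging all probe sets per gene gave 1505 higher and 1612 lower, and 272 and 425 past 2-fold, without probe sets named _s_at or _x_at the counts were 1231 and 2064, and 336 past 2-fold higher, 1 probe set per gene gave 1905 lower and 610 past 2-fold lower, and a filter at a mean of log2 5 left 726 past 2-fold lower. Adding 32 on the linear scale, which shrinks folds of dim probe sets, left 272 and 542 past 2-fold. At 1.5-fold 1761 were higher and 3068 lower in all lines, and at 3-fold 200 and 413.

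The means over a gene's probe sets reversed EPB41L5 (-0.75), CD44 (-0.25), QSOX1 (-0.32), PDCD6 (-0.32) and OXR1 (-0.26), whose probe sets oppose each other; no other named gene that was called changed sign under an alternative in which it was measured. Of 174 named genes that were called, 73 were no longer called without PC3-EMT14, 30 without PC3-EMT1 and 12 without PC3-EMT12. No paired analysis was possible because PC3-Epi is 1 array and shares fewer than 2 replicate numbers with the EMT lines. Dim signals limit the folds of genes that reach the background.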
